A study of Mus musculus with 12 samples.

Results

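The genes described here are the matrix metalloproteinases (Mmp), the secreted metalloproteinases with thrombospondin motifs (Adamts) and the tissue inhibitors of metalloproteinases (Timp) of mouse embryonic fibroblasts on day 2 of induced reprogramming. They were chosen by symbol alone, as Mmp followed by digits, Adamts followed by digits with the Adamtsl genes left out, and Timp followed by a digit. The rule took 46 of 23284 genes, of which 23 were Mmp, 19 Adamts and 4 Timp. RNA was sequenced from secondary fibroblasts of 1 line, 1B, in which doxycycline (dox) switches on introduced reprogramming factors. The siRNA was a control (siControl), or it targeted the transcription factor Myc (siMyc) or Gcn5 (siGcn5), a histone acetyltransferase within the SAGA complex and the product of Kat2a. Each siRNA was given without dox and with dox for 2 days, which made 6 groups of 2 libraries. All groups carry the inducible factors and were transfected, and no untransfected cells were analysed here. Dox came in embryonic stem cell medium 24 h after transfection per the labels, which do not state the medium of the siRNA groups without dox, so dox and medium cannot be told apart. The labels mention siRNA pools and single siRNAs without tying either to these libraries, and they tie no replicate to a separate culture, so p-values measure the spread between libraries, which may be technical.

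Mmp and Adamts enzymes hold a catalytic zinc ion and cut collagens, proteoglycans and other proteins outside the cell. They are made as inactive precursors, and the active enzymes are held in check by the Timp proteins, which bind the catalytic site in a tight complex. Fibroblasts are a main source of several of these enzymes, among them the membrane-bound collagenase Mmp14 and its substrate, the gelatinase Mmp2. Several secreted Mmp genes lie side by side in a cluster on chromosome 9, and their promoters are known for sites of AP-1, the Fos and Jun dimers.

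Promoters of 4 members of this cluster are shown because its neighbours Mmp13 and Mmp3 moved in opposite directions under siGcn5. RefSeq promoter windows of 300 bases on GRCm38.p6, from 250 bases before a gene's start to 50 after it, matched 32 of the 46 members. Each stretch below runs 5′ to 3′ on the plus strand from 120 bases before the annotated start to 10 bases after it. Capitals mark an AP-1 motif (TGANTCA) and a TATA motif (TATAAA), searched on both strands. They do not overlap one another. Mmp12 has 2 annotated starts, and the one shown is the start whose window holds both motifs.
Mmp13, chr9:7272394-7272523: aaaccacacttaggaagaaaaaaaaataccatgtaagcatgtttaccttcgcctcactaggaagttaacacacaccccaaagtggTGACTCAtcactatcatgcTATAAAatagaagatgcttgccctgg
Mmp12, chr9:7347254-7347383: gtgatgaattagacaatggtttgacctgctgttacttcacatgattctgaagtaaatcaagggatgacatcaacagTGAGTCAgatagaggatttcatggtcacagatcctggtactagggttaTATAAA
Mmp3, chr9:7445702-7445831: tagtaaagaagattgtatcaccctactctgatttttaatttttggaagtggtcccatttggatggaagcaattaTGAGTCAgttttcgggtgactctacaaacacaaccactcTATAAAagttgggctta
Mmp10, chr9:7502222-7502351: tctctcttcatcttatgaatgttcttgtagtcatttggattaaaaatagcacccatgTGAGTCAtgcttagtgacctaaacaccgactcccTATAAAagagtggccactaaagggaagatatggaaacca

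The AP-1 motif lies 35 bases before the start of Mmp13, 44 before that of Mmp12, 46 before that of Mmp3 and 63 before that of Mmp10. Over full windows it was found in 8 of the 10 members on chromosome 9 with a window and in 0 of the other 22, against 7.81% of all 32851 windows. TATAAA was found in 9 of the 10 and in 2 of the 22, against 13.6% of all windows. The E-box CACGTG, the motif that Myc binds with Max, was found in 2 members, Adamts17 and Mmp7, against 7.15% of all windows. A member was counted if any of its windows held the motif, while the percentages are per window. Members with several annotated starts thus had more chances of a match. These letter matches are descriptions of the windows.

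Values are RPKM as deposited, that is reads scaled to gene length and library size, and recovered gene reads ran from 65.5 M to 188.1 M per library. The targeted genes checked the labels: Myc stood at 17.6 to 21.7 RPKM in siControl and 4.57 to 4.8 in siMyc without dox, and at 155 to 174 and 16.9 to 26.2 with dox. Kat2a stood at 20.7 to 23 RPKM in siControl and 1.33 to 1.97 in siGcn5 without dox, and at 53.1 to 55.7 and 6.27 to 9.11 with dox. Kat2a was also lower in siMyc, at 16.5 to 17.6 RPKM without dox and 18.1 to 19.4 with dox. Myc was also lower in siGcn5, at 7.1 to 9.31 RPKM without dox and 103 to 129 with dox. Pou5f1, a reprogramming factor, went from 0.942 to 1.3 RPKM to 249 to 288 with dox in siControl, but reached 97.9 to 122 in siMyc and 137 to 200 in siGcn5, so the dox groups differed in this factor too. The 12 fibroblast markers, summed per library, ran from 10800 to 11000 RPKM in siControl without dox and from 3340 to 3770 with dox.

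In siControl without dox the highest members per length were Timp1, Timp2, Mmp14, Timp3 and Mmp2, in that order. Timp1 and Timp2 did not overlap, and neither did Timp2 and Mmp14, Mmp14 and Timp3, or Timp3 and Mmp2. Of the 46 members, 28 reached 1 RPKM in at least 2 of the 12 libraries and were tested, of which 14 were Mmp, 11 Adamts and 3 Timp. Adamts15 passed this filter through siMyc with dox alone and Mmp3 through siControl without dox alone, so both had to differ between groups. The main p-values of their called changes are therefore taken from the fit with no filter on low values. Both are among the calls counted below, and without them 160 of the 171 calls over the 9 comparisons remain. The other 18 members are described by their levels further on.

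**Figure D1:**
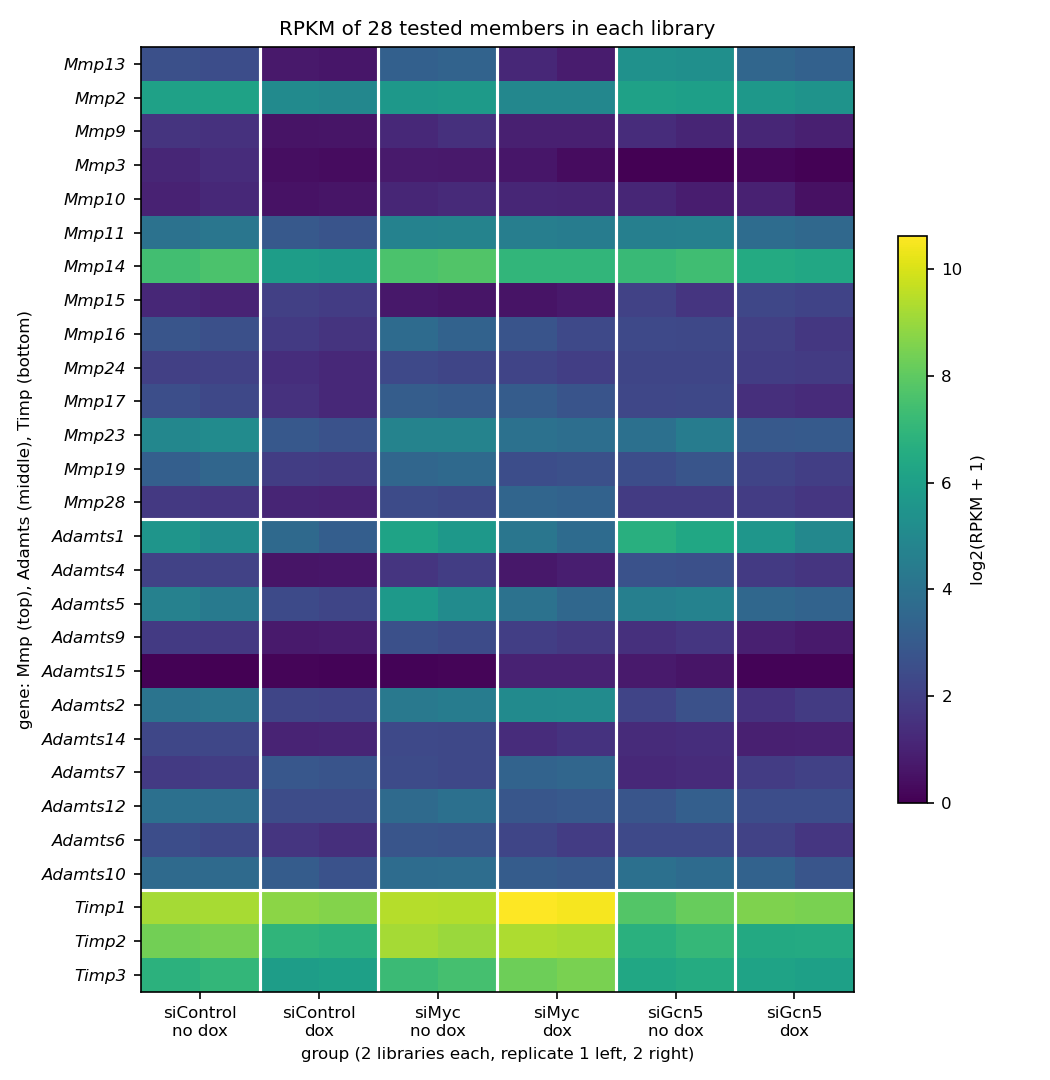
Levels of the 28 tested members in each of the 12 libraries, as colour on the log2(RPKM + 1) scale, with replicates 1 and 2 side by side in each group. The 3 Timp rows at the bottom are bright throughout, as is Mmp14, and Timp1 reached 1583 and 1421 RPKM in siMyc with dox.

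Among the collagenases, which cut fibrillar collagen, Mmp13 carried the largest response to siGcn5. Its values were 5.08 and 4.75 RPKM in siControl, 8.65 and 9.54 in siMyc and 40.6 and 38.4 in siGcn5 without dox, and 0.651 and 0.565, 1.27 and 0.753, and 10.5 and 8.72 RPKM with dox in the same order. Every siGcn5 library lay above the siControl and siMyc libraries of the same dox state, and every dox library lay below its own arm without dox. The mean under siGcn5 was 8.04-fold that of siControl without dox (log2 2.78, SE 0.13, adjusted p = 1.2e-06) and 15.8-fold with dox (log2 2.72, SE 0.13, adjusted p = 1.9e-06). Dox lowered Mmp13 in siControl (log2 −1.88, SE 0.13, adjusted p = 7.1e-07), in siMyc (log2 −2.34) and in siGcn5 (log2 −1.94), and neither interaction was called. Log2 values here and below refer to log2(RPKM + 1), and this scale makes changes of low genes look smaller. The rise in siMyc without dox (log2 0.77, SE 0.13, adjusted p = 0.0028) held in every fit. The call in siMyc with dox (log2 0.31, SE 0.13, adjusted p = 0.045) was weak: it was kept in 9 of 22 alternative settings, and in 3 of the 12 among them that left out 1 library. It was log2 0.12 without siMyc replicate 1 with dox (adjusted p = 0.4), 0.50 without replicate 2, and 0.12 under quantile normalization (adjusted p = 0.426).

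Col10a1, a collagen of cartilage cells at the growth plate where Mmp13 is also made, was 129 RPKM on average in siGcn5 without dox and 8.88 in siControl (log2 3.71). With dox it was 78.8 and 2.93 RPKM (log2 4.34). Of the 7 tested markers of cartilage and bone cells, 3 rose and 1, Col2a1, fell (log2 −0.89) in siGcn5 without dox. Of all genes tested 36.9% rose and 20.4% fell there. With dox 2 were higher and 2 lower, Bglap2 among the latter (log2 −1.46), against 31.4% and 24.9% of all genes tested. Dmp1 and Phex were under 0.1 RPKM in every library. The 11 markers of that list summed to 229 and 249 RPKM in siGcn5 and to 219 and 194 in siControl without dox, and with dox to 168 and 153 against 143 and 127. These sums hold Col10a1 itself, at 129 against 8.88 RPKM without dox and 78.8 against 2.93 with dox. The remaining markers together were therefore lower on average in siGcn5 than in siControl in both dox states. The part of these markers in the Mmp13 result was not tested.

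The stromelysin Mmp3, which cuts proteoglycans and other Mmp precursors, moved the other way. Its values were 1.18 and 1.54 RPKM in siControl, 0.721 and 0.678 in siMyc and 0.00896 and 0.0129 in siGcn5 without dox, and 0.326 and 0.291, 0.559 and 0.289, and 0.137 and 0.036 RPKM with dox in the same order. Its siGcn5 libraries lay below all others in the same dox state, and those without dox held 4 reads in all against 703 in siControl, a ratio of reads per depth of 129.8 with a counting interval of 50.5 to 478. This 95% exact interval, like those below, covers counting error only. Against the siControl group that took Mmp3 past the filter, the change was log2 −1.22 in siGcn5 without dox (adjusted p = 0.000102 with no filter) and log2 −0.85 with dox in siControl (adjusted p = 0.000136 with no filter). With dox the siGcn5 libraries held 31 reads against 129 in siControl, a ratio of 3.51 with a counting interval of 2.35 to 5.37, and the difference did not pass the test (log2 −0.27, SE 0.11, adjusted p = 0.053).

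Mmp12, the macrophage elastase, lies between Mmp13 and Mmp3 and was too low to be tested. Its values were 0.0247 and 0.0831 RPKM in siControl, 0.0124 and 0.0639 in siMyc and 0.588 and 0.539 in siGcn5 without dox, and 0.0416 and 0.0114, 0 and 0.0781, and 0.0273 and 0.102 RPKM with dox in the same order. Both siGcn5 libraries without dox stood apart from the other 10. They held 431 reads against 57 in siControl, a ratio of 10.2 per depth with a counting interval of 7.75 to 13.7. The macrophage markers Emr1 and Fcgr1 were under 0.1 RPKM in every library, and 10 macrophage markers summed to 5.17 and 6.28 RPKM in these 2 libraries and to 4.83 and 5.86 in siControl. Of the 3 tested macrophage markers 1 was higher in these libraries, Lyz2 at 2.92 against 1.85 RPKM (adjusted p = 0.025), and 0 were lower. Of all genes tested 36.9% rose and 20.4% fell in this comparison. The part of these markers in the Mmp12 values was not tested. Mmp1b, on the other strand of the same stretch, held 0 reads in both siGcn5 libraries without dox. Its siControl mean of 0.0651 RPKM was at least 4.42-fold higher than the mean that 3 reads per library would give. Mmp10, a second stromelysin, was 1.04 and 1.34 RPKM in siControl, 1.21 and 1.42 in siMyc and 1.19 and 0.79 in siGcn5 without dox, and 0.416 and 0.51, 1.24 and 1.16, and 0.959 and 0.391 RPKM with dox in the same order. It fell with dox in siControl (log2 −0.58, SE 0.15, adjusted p = 0.006), a call lost without siControl replicate 2 without dox at an adjusted p of 0.051, and its siGcn5 libraries overlapped those of siControl without dox.

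**Figure D2:**
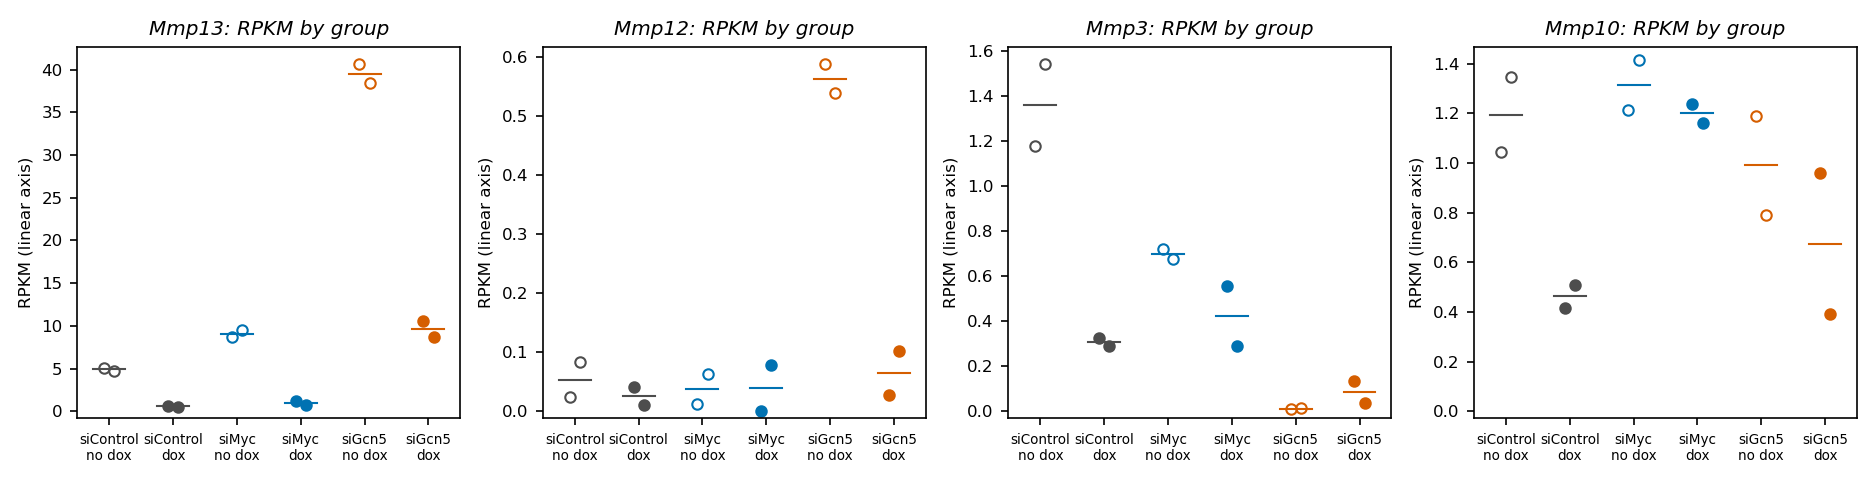
RPKM of Mmp13, Mmp12, Mmp3 and Mmp10 in each library on linear axes from 0, with open circles without dox, filled circles with dox and a bar at the group mean of 2 libraries. In siGcn5 without dox Mmp13 (40.6 and 38.4 RPKM) and Mmp12 (0.588 and 0.539) are at their highest, while Mmp3 is at its lowest (0.00896 and 0.0129).

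The gelatinases cut denatured and basement membrane collagen. Mmp2 stood at 66.2 and 69.7 RPKM in siControl, 49.3 and 55 in siMyc and 65.9 and 62.4 in siGcn5 without dox, and 32.8 and 29.3, 29.4 and 28.9, and 49.7 and 43.1 RPKM with dox in the same order. It was lower with dox in each arm, by 2.19-fold in siControl (log2 −1.11, SE 0.09, adjusted p = 1.9e-06), and stayed higher in siGcn5 with dox than in siControl with dox (log2 0.56, SE 0.09, adjusted p = 0.00052). In siMyc it was lower than in siControl without dox (log2 −0.38, SE 0.09, adjusted p = 0.013). This call was lost when siMyc replicate 1 without dox was left out (log2 −0.30). It was also lost without siControl replicate 1 (log2 −0.41) or siControl replicate 2 (log2 −0.34) without dox. Mmp9, the second gelatinase, had group means from 0.484 to 1.94 RPKM and fell with dox in siControl (log2 −0.99, SE 0.11, adjusted p = 2.4e-05).

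Membrane-type enzymes act at the cell surface. Mmp14, which activates the precursor of Mmp2 and cuts collagen itself, made up 46.3% to 57.6% of the summed Mmp RPKM of a library. Its values were 168 and 195 RPKM in siControl, 194 and 212 in siMyc and 146 and 165 in siGcn5 without dox, and 59.4 and 54.1, 127 and 125, and 90.4 and 82.5 RPKM with dox in the same order. Dox libraries were below those without dox in each arm, and both knockdowns stayed above siControl with dox. In siControl it fell 3.21-fold (log2 −1.66, SE 0.10, adjusted p = 2.7e-07). With dox it was 2.23-fold higher in siMyc (log2 1.14, SE 0.10, adjusted p = 2.2e-06) and 1.52-fold higher in siGcn5 (log2 0.60, SE 0.10, adjusted p = 0.00052), and neither siRNA comparison was called without dox.

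Mmp15, a second membrane-type enzyme, was an exception among the Mmp. Its values were 1.26 and 1.1 RPKM in siControl, 0.595 and 0.533 in siMyc and 3.25 and 2.12 in siGcn5 without dox, and 3.08 and 2.66, 0.492 and 0.643, and 3.76 and 3.35 RPKM with dox in the same order. Dox raised it in siControl (log2 0.83, SE 0.14, adjusted p = 0.00027), and it was 5.06-fold lower in siMyc than in siControl with dox (log2 −1.30, SE 0.14, adjusted p = 9.7e-06). Without dox it was higher in siGcn5 (log2 0.74, SE 0.14, adjusted p = 0.0011). Mmp16, of the same branch, stood at 6.06 and 5.03 RPKM in siControl, 12.3 and 9.1 in siMyc and 4.12 and 3.97 in siGcn5 without dox, and 2.49 and 2.06, 5.69 and 4.11, and 3.02 and 2.31 RPKM with dox in the same order. It fell with dox in siControl (log2 −1.0, SE 0.17, adjusted p = 0.00033) and was higher in siMyc with dox (log2 0.84, SE 0.17, adjusted p = 0.001).

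Mmp17 is held at the membrane by a lipid anchor. Its values were 4.83 and 3.94 RPKM in siControl, 7.66 and 6.99 in siMyc and 3.81 and 3.88 in siGcn5 without dox, and 1.89 and 1.33, 7.59 and 5.72, and 1.73 and 1.49 RPKM with dox in the same order. The fall with dox was called in siControl (log2 −1.05, SE 0.14, adjusted p = 7e-05) and siGcn5 (log2 −0.90, SE 0.14, adjusted p = 0.00044), the value in siMyc was log2 −0.13, and the interaction with siMyc was called (log2 0.92, SE 0.20, adjusted p = 0.0034). Mmp24, of the same branch as Mmp15 and Mmp16, had group means from 1.47 to 3.89 RPKM. Mmp23, a membrane enzyme of unusual domain make-up, was 29.1 and 33.9 RPKM in siControl, 26 and 26.2 in siMyc and 14.1 and 20.8 in siGcn5 without dox, and 6.68 and 5.4, 14.8 and 13.4, and 6.93 and 6.96 RPKM with dox in the same order. It had the steepest relative fall with dox of the Mmp genes above 10 RPKM in siControl, 5.21-fold (log2 −2.21, SE 0.16, adjusted p = 9e-07), and was higher in siMyc with dox (log2 1.10, SE 0.16, adjusted p = 8.7e-05).

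Mmp11, which is activated inside the cell by furin, stood at 15.2 and 16.8 RPKM in siControl, 25 and 25.9 in siMyc and 23.3 and 23.8 in siGcn5 without dox, and 6.77 and 5.7, 22.4 and 21, and 12.4 and 11.1 RPKM with dox in the same order. It was not called for dox in siMyc (log2 −0.22), and with dox it was 3.49-fold the siControl level (log2 1.66, SE 0.09, adjusted p = 2.5e-07). Mmp19 was 8.26 and 10.2 RPKM in siControl, 10.5 and 11.5 in siMyc and 4.64 and 5.95 in siGcn5 without dox, and 2.8 and 2.63, 4.79 and 5.03, and 3.49 and 2.88 RPKM with dox in the same order. It was lower in siGcn5 without dox (log2 −0.70, SE 0.13, adjusted p = 0.00098) and fell with dox in siControl (log2 −1.46, SE 0.13, adjusted p = 3.2e-06). Mmp28, known from skin cells, was 2.36 and 2.17 RPKM in siControl, 4.32 and 4.01 in siMyc and 2.64 and 2.62 in siGcn5 without dox, and 1.16 and 1.08, 10 and 9.22, and 2.72 and 2.19 RPKM with dox in the same order. Its direction with dox differed: it fell in siControl (log2 −0.62, SE 0.09, adjusted p = 0.00014), rose in siMyc (log2 1.04, SE 0.09, adjusted p = 7.9e-06) and was not called in siGcn5 (log2 −0.08). With dox the 12 keratinocyte markers summed to 950 and 1040 RPKM in siControl, 2110 and 2230 in siMyc and 888 and 1020 in siGcn5. Without dox they summed to 12.8 to 22.0 in the 3 arms. Mmp28 was higher in siGcn5 than in siControl with dox (log2 0.70, SE 0.09, adjusted p = 0.00021). In siMyc with dox 5 of 10 tested markers were higher than in siControl and 3 lower, against 37.7% and 37.1% of all genes tested. Among them were Krt16 at 794 against 257 RPKM and Cdh1 at 5.05 against 17.0 RPKM. In siGcn5 with dox 1 was higher and 4 lower, against 31.4% and 24.9% of all genes tested. Trp63, also in the list, was under 0.1 RPKM in every library. The part of these markers in the Mmp28 result was not tested. The handling of strand in counting is not given in the sources used here, and Mmp11, Mmp19, Mmp24 and Mmp28 overlap genes on the other strand, in that order Chchd10 at 2.46 to 24 RPKM, Tmem198b at 7.4 to 18.3, BC029722 at 9.43 to 26.2 and 1700020L24Rik at 0.767 to 8.18 RPKM.

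The Adamts genes that cut proteoglycans such as aggrecan and versican include Adamts1, Adamts4 and Adamts5. Adamts1 stood at 45.3 and 35.1 RPKM in siControl, 71.1 and 49.8 in siMyc and 103 and 79.7 in siGcn5 without dox, and 11.3 and 8.06, 17.1 and 12.2, and 46.4 and 30.4 RPKM with dox in the same order. It was highest in siGcn5 in either dox state, 2.27-fold over siControl without dox (log2 1.16, SE 0.26, adjusted p = 0.0031) and 3.97-fold with dox (log2 1.87, SE 0.26, adjusted p = 0.00024). Adamts4 was 3.25 and 3.31 RPKM in siControl, 2.16 and 2.8 in siMyc and 5.32 and 4.98 in siGcn5 without dox, and 0.524 and 0.565, 0.615 and 0.838, and 2.51 and 2.09 RPKM with dox in the same order. It too was higher in siGcn5 without dox (log2 0.52, SE 0.11, adjusted p = 0.0024) and with dox (log2 1.09, SE 0.11, adjusted p = 5.4e-05).

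Adamts5 stood at 24.4 and 19.5 RPKM in siControl, 51.2 and 33.8 in siMyc and 22.8 and 25.5 in siGcn5 without dox, and 4.18 and 3.61, 15.2 and 10.9, and 10.8 and 9.48 RPKM with dox in the same order. It had the largest fall of the tested members with dox in siControl on the log2 scale (log2 −2.22, SE 0.20, adjusted p = 3.7e-06), and with dox both siMyc (log2 1.50, SE 0.20, adjusted p = 5.4e-05) and siGcn5 (log2 1.19, SE 0.20, adjusted p = 0.00069) were higher. Adamts9, a versican-cutting enzyme, was 2.47 and 2.41 RPKM in siControl, 5.03 and 4.36 in siMyc and 1.76 and 2.19 in siGcn5 without dox, and 0.709 and 0.778, 2.94 and 2.43, and 0.931 and 0.725 RPKM with dox in the same order. It was higher in siMyc without dox (log2 0.73, SE 0.11, adjusted p = 0.0019) and with dox (log2 1.08, SE 0.11, adjusted p = 8e-06). Adamts15 reached 1.02 and 1.03 RPKM in siMyc with dox, with 0.683 and 0.525 for siGcn5 lacking dox, and at most 0.11 RPKM in the other 8 libraries.

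Procollagen N-proteinases remove the amino-terminal end of fibrillar procollagens. Adamts2, the main one of skin, was 15.9 and 17.6 RPKM in siControl, 18.9 and 21.4 in siMyc and 3.49 and 5.27 in siGcn5 without dox, and 3.67 and 3.41, 32.6 and 34.3, and 1.92 and 2.58 RPKM with dox in the same order. Dox lowered it in siControl (log2 −1.97, SE 0.15, adjusted p = 1.4e-06) and raised it in siMyc (log2 0.71, SE 0.15, adjusted p = 0.0034), and with dox it was 9.45-fold higher in siMyc than in siControl (log2 2.92, SE 0.15, adjusted p = 1.7e-07). Without dox siGcn5 was 3.82-fold lower than siControl (log2 −1.74, SE 0.15, adjusted p = 1.8e-05). Its relative Adamts14 was 3.75 and 3.81 RPKM in siControl, 4.1 and 3.9 in siMyc and 1.49 and 1.64 in siGcn5 without dox, and 1.07 and 1.13, 1.58 and 1.91, and 0.901 and 0.975 RPKM with dox in the same order. Like Adamts2 it fell with dox in siControl (log2 −1.19, SE 0.08, adjusted p = 9e-07) and was lower in siGcn5 without dox (log2 −0.90, SE 0.08, adjusted p = 2.4e-05). The third of this branch, Adamts3, stayed under 0.6 RPKM and was not tested. Its levels went the other way in both respects. Without dox it was 0.175 and 0.164 RPKM in siControl and 0.506 and 0.553 in siGcn5. With dox it was 0.328 and 0.339 RPKM in siControl.

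Adamts7 and Adamts12 cut the cartilage protein Comp. Adamts7 was 2.52 and 2.86 RPKM in siControl, 4.44 and 3.95 in siMyc and 1.32 and 1.48 in siGcn5 without dox, and 6.46 and 5.81, 9.37 and 10.3, and 2.71 and 3.14 RPKM with dox in the same order. It rose with dox in siControl (log2 0.95, SE 0.10, adjusted p = 1.1e-05), siMyc (log2 1.06, SE 0.10, adjusted p = 1.1e-05) and siGcn5 (log2 0.71, SE 0.10, adjusted p = 0.00021), and its siGcn5 libraries were below those of siControl without dox (log2 −0.62, SE 0.10, adjusted p = 0.00048) and with dox (log2 −0.86, SE 0.10, adjusted p = 0.0001). It overlaps Tbc1d2b on the other strand, at 4.62 to 9.08 RPKM. Adamts12 was 14.3 and 13.8 RPKM in siControl, 11.8 and 14.1 in siMyc and 5.99 and 8.22 in siGcn5 without dox, and 4.47 and 4.6, 6.26 and 6.87, and 4.69 and 4.78 RPKM with dox in the same order. It fell with dox in siControl (log2 −1.44, SE 0.13, adjusted p = 3.2e-06) and was lower in siGcn5 without dox (log2 −0.91, SE 0.13, adjusted p = 0.00021). Adamts10, which is tied to fibrillin microfibrils, was 11.8 and 11.9 RPKM in siControl, 12.4 and 13.1 in siMyc and 14 and 12.3 in siGcn5 without dox, and 7.62 and 5.49, 7.5 and 6.75, and 9.12 and 5.89 RPKM with dox in the same order. It fell with dox in each arm (log2 −0.78 in siControl, log2 −0.76 in siMyc and log2 −0.76 in siGcn5, or log2 −0.48 without siGcn5 replicate 2 with dox) and was called in none of the siRNA comparisons. Adamts6, of the same branch, had group means from 1.91 to 5.82 RPKM.

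Timp1 had the highest mean RPKM of the members in each of the 6 groups. The 3 tested Timp were higher in siMyc with dox and lower in siGcn5 without dox, each against siControl. Timp1, which inhibits most soluble Mmp and is a weak inhibitor of Mmp14, stood at 583 and 607 RPKM in siControl, 688 and 670 in siMyc and 217 and 282 in siGcn5 without dox, and 436 and 399, 1583 and 1421, and 384 and 358 RPKM with dox in the same order. Its siMyc libraries with dox were the highest of the 12, and the siGcn5 libraries without dox the lowest. Dox lowered Timp1 in siControl (log2 −0.51, SE 0.11, adjusted p = 0.0022) and raised it in siMyc (log2 1.14, SE 0.11, adjusted p = 1.8e-05) and in siGcn5 (log2 0.58, SE 0.11, adjusted p = 0.0017). With dox siMyc was 3.6-fold above siControl (log2 1.84, SE 0.11, adjusted p = 4.3e-07), and without dox siGcn5 was 2.38-fold below it (log2 −1.26, SE 0.11, adjusted p = 2.2e-05).

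Timp2 both inhibits Mmp14 and, bound to it, brings the Mmp2 precursor to the cell surface. Its values were 326 and 350 RPKM in siControl, 586 and 529 in siMyc and 105 and 133 in siGcn5 without dox, and 122 and 112, 637 and 595, and 87.8 and 88.1 RPKM with dox in the same order. In both dox states siMyc was above and siGcn5 below siControl, with no overlap of libraries. It was 5.26-fold higher in siMyc with dox (log2 2.39, SE 0.11, adjusted p = 9.9e-08) and 2.84-fold lower in siGcn5 without dox (log2 −1.50, SE 0.11, adjusted p = 7.4e-06). The fall with dox was 2.88-fold in siControl (log2 −1.52, SE 0.11, adjusted p = 9.1e-07) and the change in siMyc was not called (log2 0.14, SE 0.11, adjusted p = 0.31). Without dox siMyc was higher (log2 0.72, SE 0.11, adjusted p = 0.0018).

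Timp3, which is held in the matrix and also inhibits Adamts4, Adamts5 and sheddases, was 112 and 129 RPKM in siControl, 152 and 177 in siMyc and 78.7 and 91.8 in siGcn5 without dox, and 59.2 and 65, 307 and 356, and 71.1 and 64.3 RPKM with dox in the same order. Dox lowered it in siControl (log2 −0.95, SE 0.12, adjusted p = 3.7e-05) and raised it in siMyc (log2 1.01, SE 0.12, adjusted p = 5.4e-05), and siMyc was 5.34-fold higher with dox (log2 2.39, SE 0.12, adjusted p = 1.4e-07). In siGcn5 without dox it was lower (log2 −0.50, SE 0.12, adjusted p = 0.0044). Timp4 was 0.0786 and 0.08 RPKM in siControl, 0.23 and 0.244 in siMyc and 0.296 and 0.155 in siGcn5 without dox, and 0.053 and 0.0363, 1.49 and 0.435, and 0.236 and 0.0763 RPKM with dox in the same order. It was not tested, and its highest value came from 1 of the 2 siMyc libraries with dox, the library of lowest depth. Timp1, Timp3 and Timp4 each lie across a synapsin gene on the other strand, of which Syn1 reached at most 3.7 RPKM, Syn2 1.68 and Syn3 0.185.

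**Figure D3:**
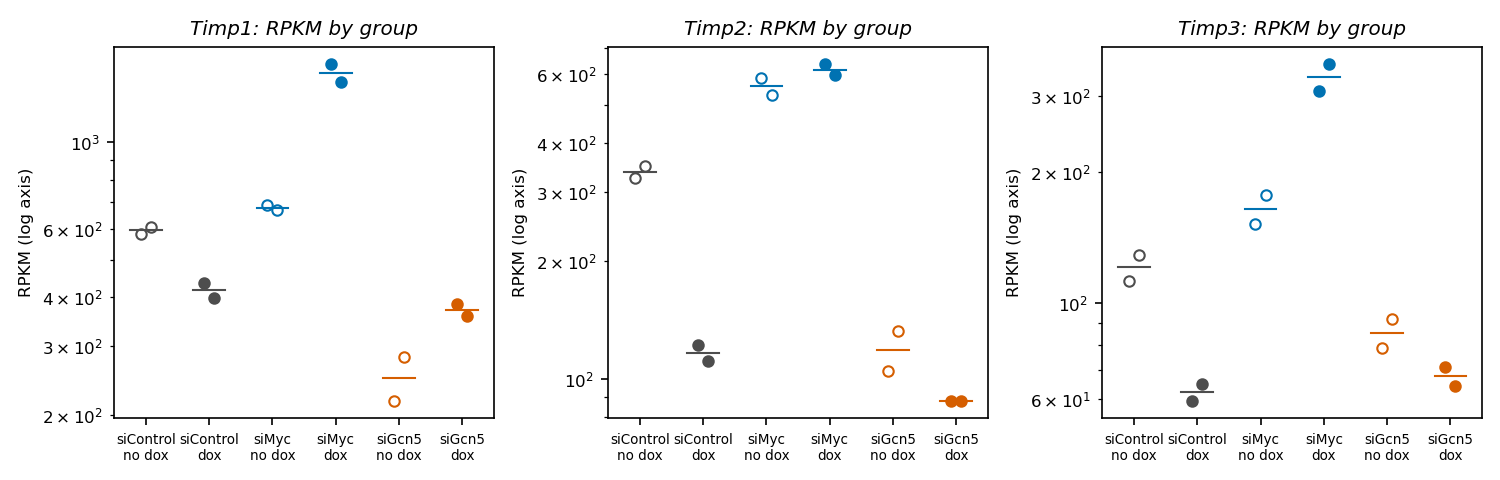
RPKM of Timp1, Timp2 and Timp3 in each library on log axes, with open circles without dox, filled circles with dox and a bar at the group mean. The siMyc libraries with dox are the highest of each panel, from 1421 to 1583 RPKM for Timp1, and the siGcn5 libraries without dox lie below the siControl libraries without dox.

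Summed per library, Timp RPKM exceeded Mmp and Adamts RPKM in 11 of 12 libraries. The summed RPKM of the 23 Mmp was 332 ± 25.9 (SD, n = 2) in siControl without dox and 114 ± 9.25 with dox. The 19 Adamts summed to 122 ± 9.98 and 40.2 ± 4.95. The 4 Timp summed to 1050 ± 46.0 and 597 ± 29.6. In siMyc with dox the Timp sum was 2450 ± 110 RPKM beside 226 ± 7.41 for Mmp and 95.1 ± 5.36 for Adamts. In siGcn5 without dox it was 454 ± 75.2 beside 326 ± 13.8 and 156 ± 12.3. Mmp and Adamts RPKM per Timp RPKM was thus 0.434 and 0.429 in siControl without dox and 0.267 and 0.251 with dox. For siMyc it was 0.374 and 0.38, and under dox 0.13 and 0.131. For siGcn5 it was 1.2 and 0.951, and under dox 0.506 and 0.456. This ratio of RNA levels is a description with no test, and it weighs every member per length and is led by Timp1, Timp2 and Mmp14. The 6 groups did not overlap in it, with the siMyc libraries lowest under dox.

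**Figure D4:**
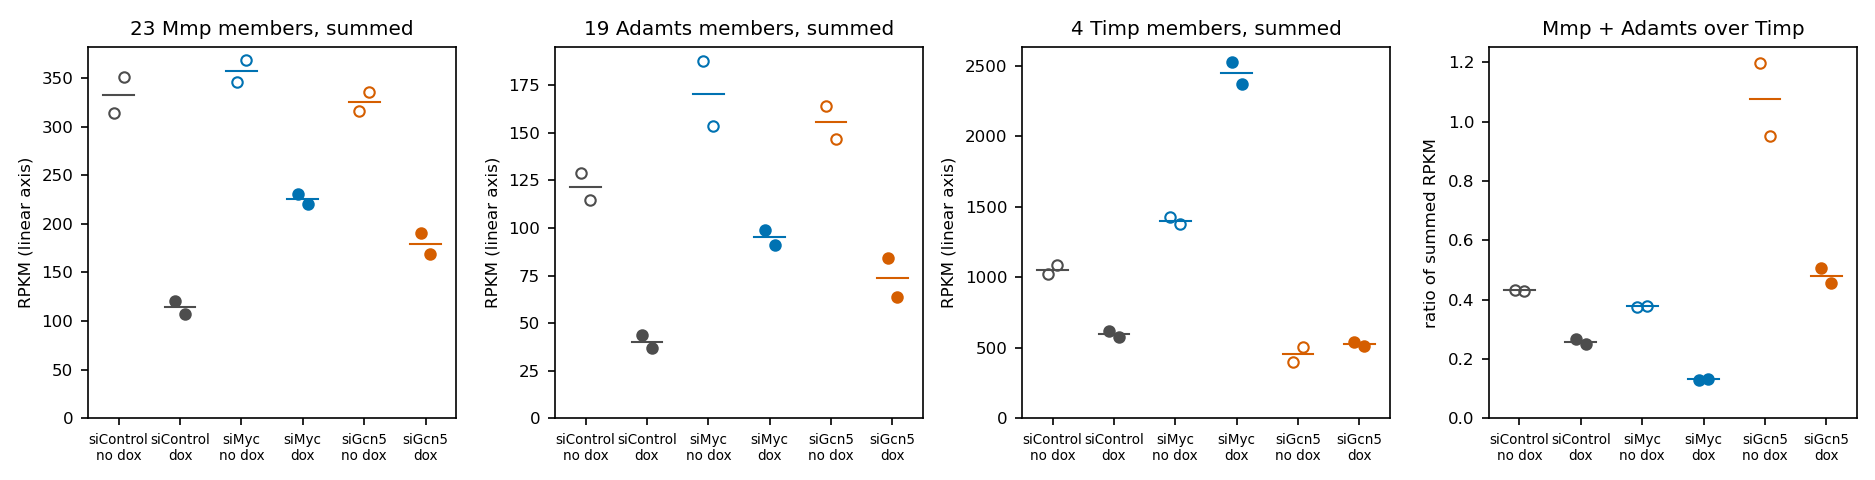
Summed RPKM of the Mmp, Adamts and Timp members and the ratio of Mmp plus Adamts to Timp in each library, on linear axes from 0, with open circles without dox, filled circles with dox and a bar at the group mean of 2 libraries. The Timp sum is highest in siMyc with dox, at a mean of 2450 RPKM, and the ratio is highest in siGcn5 without dox, at a mean of 1.07.

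The first comparison asked what 2 days of dox did in siControl cells. Collagenolytic, gelatinolytic and membrane-type enzymes, most Adamts and the 3 tested Timp fell, while Mmp15 and Adamts7 rose. On the log2(RPKM + 1) scale Mmp13, Mmp14, Mmp23, Adamts1, Adamts2 and Adamts5 were among the steepest falls. By ratio of means some lower genes, such as Adamts4 (6.02-fold) and Mmp9 (4.0-fold), fell more than Mmp14 (3.2-fold). Of the 28 tested members 25 fell and 2 rose, and Adamts15 was not called. Over all 13175 genes tested 27.9% fell and 46.1% rose. The median change of the tested members was log2 −1.02, against 0.17 over all genes tested. RPKM measures a share of the library, and in bulk RNA fewer cells of a type and less RNA per cell cannot be told apart. Other scalings moved the median of all genes by up to 0.17 here, and rises made up 62.3% of all calls, or 52.2% after median-ratio scaling and 49.9% after quantile normalization. Fibroblast markers fell alongside (11 of 12, none rose) and keratinocyte markers rose (10 of 10 tested), led by Krt14 at log2 8.30. Muscle markers fell in 4 of 4 tested cases, and cartilage and bone markers fell in 4 of 7 and rose in 3. Their part in the members' falls was not tested. Leaving out 1 library at a time ended only the call of Mmp10, as given above.

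Under siMyc dox moved members in both directions. Adamts1, Adamts5, Mmp13, Mmp14, Mmp2 and Mmp19 still fell, while Timp1, Timp3, Adamts2, Adamts7, Adamts15 and Mmp28 rose. Of the 28 tested members 15 fell and 6 rose, against 15.9% and 28.9% of all genes tested, and the median was log2 −0.52 against 0.08. Fibroblast markers fell in 9 of 12 cases and rose in 2. Under quantile normalization 40.2% of all calls were rises, against 64.5%. The call of Mmp9 was lost without siMyc replicate 2 without dox (adjusted p 0.11) and without siMyc replicate 1 with dox (0.0565).

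Under siGcn5 dox lowered Mmp13, Mmp14, Mmp23, Adamts1, Adamts5 and 16 other members and raised Timp1 and Adamts7. The 21 falls and 2 rises among 28 tested members stood against 22.4% and 36.0% of all genes, with a median of log2 −0.48 against 0.08. The share of rises among all calls was 61.6%, and became 49.2% (median-ratio scaling) or 43.0% (quantile). Calls lost in fits that left out 1 library, with the highest adjusted p and its library in parentheses, were Adamts12 (up to 0.0631, without siGcn5 replicate 2 without dox), Adamts6 (up to 0.234, without siGcn5 replicate 2 with dox), Mmp16 (up to 0.208, without siGcn5 replicate 2 with dox), Mmp24 (up to 0.0665, without siGcn5 replicate 2 with dox), Timp2 (up to 0.0609, without siGcn5 replicate 2 without dox) and Timp3 (up to 0.215, without siGcn5 replicate 2 without dox). Values moved by over 1.5 times for Adamts10 (to log2 −0.48) and Adamts6 (to −0.23) without siGcn5 replicate 2 with dox, and for Adamts2 (to −0.47), Adamts12 (to −0.29), Timp2 (to −0.25) and Timp3 (to −0.22) without siGcn5 replicate 2 lacking dox. Of 12 fibroblast markers 10 fell and 1 rose.

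The second set of comparisons asked what each siRNA did at a fixed dox state, and siMyc and siGcn5 share the siControl libraries. Without dox siMyc had modest effects. Timp2, Mmp11, Mmp13, Mmp28 and Adamts9 rose in every fit. In all 10 of 28 tested members rose and 3 fell, against 12.8% and 10.7% of all genes, with a median of log2 0.24 against 0.02. The count rested on single libraries: it was 6 without siMyc replicate 1 and 7 without siControl replicate 2, of 13. Calls lost in such fits were Adamts5 (up to 0.0855, without siMyc replicate 1 without dox), Adamts7 (up to 0.0665, without siMyc replicate 1 without dox), Mmp15 (up to 0.156, without siControl replicate 1 without dox), Mmp16 (up to 0.0692, without siMyc replicate 1 without dox), Mmp17 (up to 0.0877, without siControl replicate 2 without dox), Mmp2 (up to 0.118, without siMyc replicate 1 without dox), Mmp3 (up to 0.0999, without siControl replicate 2 without dox) and Timp3 (up to 0.157, without siControl replicate 1 without dox). Of the 12 fibroblast markers 2 fell and 0 rose.

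Without dox siGcn5 lowered the 3 tested Timp and moved enzymes in both directions. Mmp13, Mmp11, Mmp15, Adamts1, Adamts4 and Adamts15 rose, and Timp1, Timp2, Timp3, Adamts2, Adamts7, Adamts12, Adamts14, Mmp3, Mmp9, Mmp19 and Mmp23 fell. These 6 rises and 11 falls stood against 36.9% and 20.4% of all genes, and the median was log2 −0.18 against 0.11. Of all calls 64.4% were rises, a share of 49.5% (median-ratio scaling) or 54.0% (quantile) otherwise. The call of Mmp9 was lost without siGcn5 replicate 2 (log2 −0.33 to −0.19, adjusted p 0.228). Fibroblast markers fell in 7 of 12 cases and rose in 1, led by S100a4 (log2 −1.68), Thy1 (log2 −1.52) and Col3a1 (log2 −1.01). Their part in these changes was not tested.

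With dox siMyc raised most members. Timp2, Timp3, Adamts2, Mmp28, Timp1, Mmp11, Mmp17 and Adamts5 led, and Mmp15 alone fell. The 22 rises among 28 tested members stood against 37.7% of all genes and the 1 fall against 37.1%, with a median of log2 0.71 against 0.02. Adamts1, Adamts4, Adamts10, Mmp2 and Mmp3 were not called. Fibroblast markers rose in 8 of 12 cases and none fell, and their sum was 6740 and 6820 RPKM against 3340 and 3770 in siControl with dox. Markers of cartilage and bone were higher in 6 of 7 tested cases and lower in 0, with sums of 770 and 807 RPKM against 127 and 143, and muscle markers in 4 of 4, with 356 and 361 against 97.5 and 137, though Myod1, Myog, Myf5 and Ckm were under 0.1 RPKM in every library. Macrophage markers were higher in 3 of 3 tested cases. Their part was not tested. Calls lost in fits that left out 1 library were Adamts12 (up to 0.051, without siMyc replicate 2 with dox), Adamts6 (up to 0.117, without siMyc replicate 1 with dox), Mmp13 (up to 0.4, without siMyc replicate 1 with dox) and Mmp9 (up to 0.0684, without siControl replicate 1 with dox).

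With dox siGcn5 raised Mmp13, Adamts1, Adamts5, Adamts4, Mmp11, Mmp28, Mmp14, Mmp24, Mmp2 and Mmp9 and lowered Adamts7, Adamts2 and Timp2. Of 12 fibroblast markers 5 were higher and 1 lower, and of 4 tested muscle markers 4 were higher, with sums of 182 and 228 RPKM against 97.5 and 137. Their part was not tested. These 10 rises and 3 falls stood against 31.4% and 24.9% of all genes, with a median of log2 0.17 against 0.05. Rises made up 55.8% of all calls, or 47.5% under median-ratio scaling. Calls lost in fits that left out 1 library were Adamts2 (up to 0.146, without siGcn5 replicate 1 with dox), Mmp9 (up to 0.0542, without siGcn5 replicate 1 with dox) and Timp2 (up to 0.063, without siControl replicate 1 with dox).

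The interaction terms compared the dox response of each knockdown with that of siControl directly. With siMyc the response was less negative or more positive for 16 of 28 tested members, led by Adamts2 (log2 2.67, SE 0.21, adjusted p = 2.1e-05), Timp3 (log2 1.95, SE 0.16, adjusted p = 2.7e-05) and Mmp28 (log2 1.67, SE 0.13, adjusted p = 2.1e-05), and more negative for Mmp15 (log2 −0.82, SE 0.19, adjusted p = 0.0048). This stood against 24.8% of all genes with a positive and 29.3% with a negative call, and a median of log2 0.53 against −0.03. With siGcn5 16 members were positive, led by Adamts2 (log2 1.25, SE 0.21, adjusted p = 0.0049), Timp2 (log2 1.10, SE 0.15, adjusted p = 0.0027) and Timp1 (log2 1.09, SE 0.16, adjusted p = 0.0033), and Adamts15 was negative (log2 −0.66, adjusted p = 0.00209 with no filter), against 11.4% and 14.5% of all genes and a median of log2 0.59 against −0.08. Under median-ratio scaling 57.0% of all siGcn5 interaction calls were positive, against 44.0%, and 55.3% of those with siMyc, against 45.8%. Both interactions share the siControl libraries. For Timp1, Timp2, Adamts2 and Mmp3, which stood below siControl in siGcn5 without dox, the dox change in siGcn5 was log2 0.58, log2 −0.42, log2 −0.71 and log2 0.10. Without siGcn5 replicate 2 lacking dox, it was log2 −0.25 for Timp2 and −0.47 for Adamts2. Mmp3 held 2 reads in each siGcn5 library without dox, so it had almost no room to fall there. Its positive siGcn5 term was therefore fixed by the fall in siControl. Fibroblast markers had a positive term in 9 of 12 cases and a negative one in none with either siRNA, and their part was not tested. Calls of the siMyc term lost in fits that left out 1 library were Adamts12 (up to 0.0865, without siMyc replicate 1 without dox), Adamts14 (up to 0.14, without siMyc replicate 2 with dox), Adamts4 (up to 0.11, without siMyc replicate 1 without dox) and Mmp9 (up to 0.0563, without siMyc replicate 1 without dox), and those of the siGcn5 term Adamts4 (up to 0.0767, without siControl replicate 2 without dox), Adamts5 (up to 0.0812, without siControl replicate 1 without dox), Mmp24 (up to 0.154, without siControl replicate 2 with dox), Mmp28 (up to 0.0585, without siControl replicate 1 without dox) and Timp3 (up to 0.0857, without siControl replicate 2 without dox). Mmp3 also lost its siMyc term with limma voom on recovered reads, at an adjusted p of 0.0739.

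**Figure D5:**
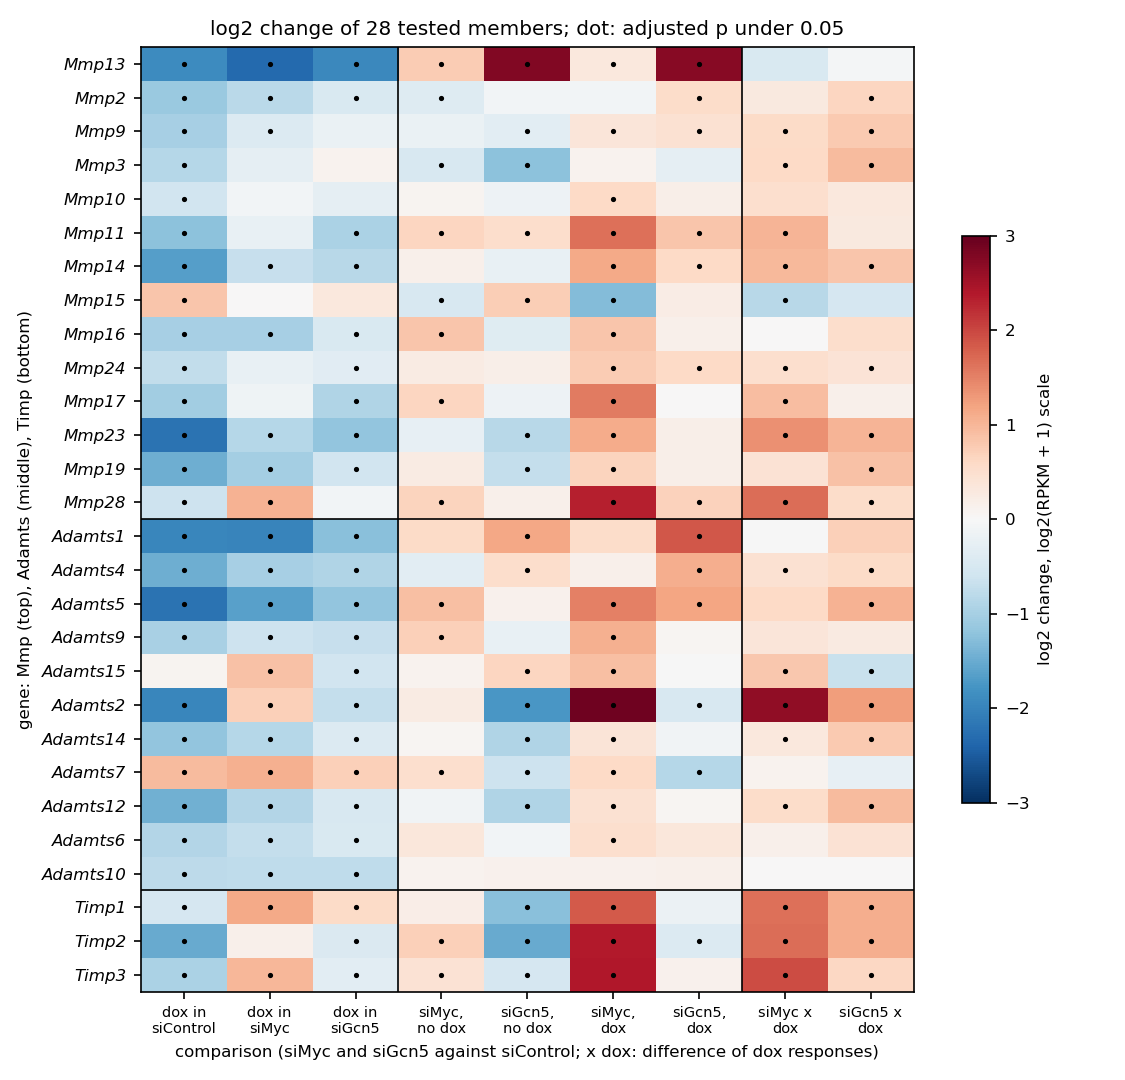
Log2 change of each tested member on the log2(RPKM + 1) scale in the 9 comparisons, with red for higher, blue for lower and a dot where the adjusted p was under 0.05; the colour scale ends at 3 in either direction. The first column is blue with dots for 25 of 28 members, and the siMyc column with dox is red with dots for 22.

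The 18 members below the filter held from 0 to 3500 reads over the 12 libraries. Mmp7 had 0 reads in all 12 libraries, Mmp1a 1 read in all, Mmp21 7, Mmp20 25, Mmp8 33 and Adamts13 37. The highest RPKM was 0.119 for Mmp27, 0.0859 for Adamts16, 0.191 for Adamts18, 0.178 for Adamts19 and 0.553 for Adamts3. Some of these had a pattern all the same. Mmp25, known from leukocytes, was 0.0396 and 0.0513 RPKM in siControl, 0.0796 and 0.041 in siMyc and 0.0502 and 0.0206 in siGcn5 without dox, and 0.163 and 0.152, 0.819 and 0.804, and 0.222 and 0.211 RPKM with dox in the same order. Both siMyc libraries with dox stood above the other 10. Adamts20, of the same branch as Adamts9, was 0.0643 and 0.0615 RPKM in siControl, 0.0452 and 0.0534 in siMyc and 0.0423 and 0.0488 in siGcn5 without dox, and 0.506 and 0.493, 0.117 and 0.107, and 0.126 and 0.253 RPKM with dox in the same order. Each dox library was above each library without dox, and the siControl libraries with dox were the highest. Adamts17, related to Adamts10, showed the same order, with 0.424 and 0.356 RPKM in siControl with dox and at most 0.0742 in any library without dox. Adamts8 reached 0.206 and 0.367 RPKM in siMyc with dox and at most 0.12 elsewhere.

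Other genes of the same pathways were followed in lists. Beside the list counts below stand the shares of all genes tested that rose and fell. These were 46.1% and 27.9% with dox in siControl, and 36.9% and 20.4% in siGcn5 without dox against siControl. Against siControl with dox they were 37.7% and 37.1% in siMyc, and 31.4% and 24.9% in siGcn5. With dox in siControl, beside log2 0.17 over all genes tested, the list medians were −1.54 for matrix substrates, −1.43 for astacin and serine proteases, −1.31 for other inhibitors, −0.65 for cathepsins and for Adamts-like proteins, −0.59 for plasminogen activation, −0.46 for Adam sheddases, −0.29 for inducers and 0.02 for convertases. With dox, siMyc against siControl gave medians of 1.56 for astacin and serine proteases, 1.37 for cathepsins, 1.27 for substrates, 1.18 for other inhibitors, 1.0 for Adamts-like proteins, 0.50 for sheddases, 0.43 for inducers, 0.33 for plasminogen activation and 0.11 for convertases, beside 0.02 over all genes tested. Plasmin, which cuts matrix and activates Mmp precursors, is released from plasminogen by Plau and Plat. With dox in siControl 8 of 10 tested genes of plasminogen activation fell and 1 rose, with Plau at log2 −1.73, Plat at log2 −1.97 and the thrombin receptor Thbd at log2 −2.16. Plg itself was under 0.1 RPKM in every library. With dox 7 rose and 2 fell in siMyc against siControl, and 4 rose and 0 fell in siGcn5, led by Plau (log2 1.29). The 4 rises of 10 in siGcn5 were near the 31.4% of all genes tested that rose there.

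Substrates fell with the enzymes. With dox in siControl 20 of 22 tested matrix substrates fell and 2 rose, led by the fibrillar collagens Col1a2 (log2 −2.37), Col1a1 (log2 −2.37) and Col3a1 (log2 −2.36). In siMyc with dox 17 were higher and 1 lower, and in siGcn5 with dox 14 were higher and 2 lower, led by fibronectin, Fn1 (log2 1.65). Without dox siGcn5 lowered 12 and raised 2, led by Col6a1 (log2 −2.28), Cspg4 (log2 −1.78) and versican, Vcan (log2 −1.58). Col1a1, Col1a2 and Col3a1 are also fibroblast markers in the list used here.

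Among other surface and matrix proteases, Bmp1, which removes the carboxy-terminal end of procollagens, was at log2 −1.86 with dox in siControl, and 6 of 8 tested astacin and serine proteases fell while 2 rose. Of 10 Adam sheddases 6 fell and 2 rose, with Adam12 at log2 −1.81 and Adam19 at log2 −1.60, and 7 were higher in siMyc with dox, led by Adam15 (log2 1.83). Lysosomal cathepsins and their inhibitors fell in 11 of 12 cases in siControl with none higher, and 11 of 12 were higher in siMyc with dox, led by Ctsl (log2 1.76). The proprotein convertases, which cut the precursors of membrane-type Mmp and Adamts, were mixed: 3 of 7 rose with dox in siControl and 2 fell, led by Pcsk6 (log2 3.41). The Adamts-like proteins, which lack the protease domain, fell in 3 of 4 cases with dox in siControl, and 4 of 4 were higher in siMyc with dox.

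Of 5 tested genes of other inhibitors and clearance, 3 fell and 1 rose with dox in siControl. Reck, a membrane-anchored inhibitor of Mmp2, Mmp9 and Mmp14, fell with dox in siControl (log2 −1.31) and was higher in siGcn5 without dox (log2 1.15), where Timp1 to Timp3 were lower. Lrp1, a receptor that clears several of these enzymes from the cell surface, fell with dox in siControl (log2 −1.91) and was higher with dox in siMyc (log2 1.78) and siGcn5 (log2 1.48). Among 20 tested inducers and transcription factors of Mmp genes, siGcn5 without dox lowered 7 and raised 1, led by Tgfb1 (log2 −1.63), Etv4 (log2 −1.33) and the AP-1 subunit Fosl1 (log2 −1.23). With dox in siControl 10 fell and 4 rose, led by Tgfb3 (log2 −1.87) and Il6 (log2 −1.52).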

How the data were processed

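Total RNA of 12 libraries was sequenced after ribosomal RNA depletion with a stranded kit, per the labels' protocols. The authors deposited RPKM values per gene symbol, 1 table per library. TopHat2 2.0.9, Bowtie 0.12.8 and build mm9 are named in the submitters' processing notes. The sources used here give no annotation, strand setting, read sharing rule or filter. RPKM divides by the library's reads, so total RNA per cell is not measured. Whole reads were recovered from the RPKM steps for all 20788 genes with a value, within 0.05 read, and serve depth, floors and 1 alternative. Replicates differed by more than sampling noise (chi-square per degree of freedom 32.2 to 88.3).

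Genes with RPKM of 1 or more in at least 2 libraries (13175) were tested by limma 3.58.1 (R 4.3.3) on log2(RPKM + 1) with its trend option, 1 term per group over all 12 libraries and 6 residual degrees of freedom. Calls are two-sided at a Benjamini-Hochberg adjusted p under 0.05 over all genes tested. The script was tested on simulated data. The pseudocount, filter, scaling, trend, weights, replicate block, groups fitted and each library left out were varied. Members and lists were chosen with earlier results of these data known. Values per library are given for every Timp and for members called with a log2 change of at least 1, or with a group mean of at least 10 RPKM, and other lists by up to 3 called genes. Mmp10, Mmp12, Mmp1b, Mmp25, Adamts3, Adamts15, Adamts17, Adamts20 and Adamts8 fall outside that rule and were chosen after their values were seen. Promoter windows came from RefSeq on GRCm38.p6, and no coordinate was converted from mm9.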

Additional observations from a re-analysis of the deposited data

Results flagged for a closer look

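The dox response was compared with that of siControl by limma's interaction term, called at an adjusted p under 0.05. Calls were made for 17 of 28 tested members with siMyc and for 17 with siGcn5. Over all genes tested 24.8% had a positive and 29.3% a negative call with siMyc, and 11.4% and 14.5% with siGcn5. Each called difference below is in log2(RPKM + 1). With siMyc the inhibitors were Timp3 (1.95), Timp2 (1.67) and Timp1 (1.65). The Mmp genes with a positive difference were Mmp28 (1.67), Mmp23 (1.36), Mmp11 (1.01), Mmp14 (0.98), Mmp17 (0.92), Mmp3 (0.59), Mmp9 (0.57) and Mmp24 (0.51), and Mmp15 was negative (−0.82). The Adamts genes were Adamts2 (2.67), Adamts15 (0.80), Adamts12 (0.56), Adamts4 (0.46) and Adamts14 (0.32). For Timp1, Timp3, Adamts2 and Mmp28 both siControl libraries with dox lay below both without dox, and the siMyc libraries moved the other way.

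With siGcn5 the inhibitors were Timp2 (1.10), Timp1 (1.09) and Timp3 (0.62). The Mmp genes were Mmp23 (1.02), Mmp3 (0.95), Mmp19 (0.87), Mmp14 (0.82), Mmp9 (0.79), Mmp2 (0.64), Mmp28 (0.55) and Mmp24 (0.41). The Adamts genes were Adamts2 (1.25), Adamts5 (1.05), Adamts12 (0.96), Adamts14 (0.79) and Adamts4 (0.57), and Adamts15 was negative (−0.66). Timp1 was the member whose libraries moved down with dox in siControl and up in siGcn5 with a called change in each arm. Mmp3 and Adamts15 passed the filter on low values through 1 group each, which favours a difference. With no filter their adjusted p was 0.0115 and 0.000103 with siMyc, and 0.00809 and 0.00209 with siGcn5. Mmp3 held 2 reads in each siGcn5 library without dox and had almost no room to fall with dox there. Once it fell in siControl, its siGcn5 term had to be positive, with or without the filter. Both sets rest on the same 4 siControl libraries, and groups of 2 libraries allow no check for a sample that stands apart.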

How the results depend on the processing

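Of 171 calls of members over the 9 comparisons, 137 were kept under every setting run, no called change reversed, and 138 were kept in each of the 12 fits that left out 1 library. Calls kept were 170 of 171 with log2(RPKM + 0.1), 159 with no filter on low values, 171 with median-ratio scaling, 165 with quantile normalization, 168 with array weights, 171 with no intensity trend, 165 with only the groups compared, and 169 with limma voom on recovered reads, a setting chosen after seeing the data. The log2(RPKM + 0.1) and voom settings moved values of low genes by over 1.5 times, as those scales shrink low genes less. A filter on a mean RPKM of at least 5 left 15 members to test and kept 98 of 98 calls. It gave 15 called members for dox in siControl, 13 for dox in siMyc and 15 for dox in siGcn5. It gave 7 for siMyc and 10 for siGcn5 without dox, 12 for siMyc and 8 for siGcn5 with dox, and 8 and 10 for their interactions. The counts are lower by the construction of this filter, since fewer members were tested. Leaving out 1 library at a time, the count for siMyc without dox ran from 6 to 13, and the cause was not tested. Replicate numbers are shared between groups. All 15 correlations of replicate differences were positive, from 0.0933 to 0.489, a hint of a shared replicate effect, but 14 and not all were over the 0.1 asked of every pair, so the block stayed an alternative. With a replicate block all 171 of 171 calls were kept and counts were higher in 8 of 9 comparisons, from 13 to 16 for siMyc without dox and from 17 to 21 for the siGcn5 interaction. Among members with reads, 3 reads stood for at most 0.0904 RPKM in any library, for Mmp1a. Values of 3 reads or fewer thus occurred only at very low levels, as for Mmp3 in siGcn5 without dox. Adamts3, under 0.6 RPKM, held at least 138 reads in every library.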
